A study of Mus musculus with 18 samples.

Results

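The genes described here are the enzymes and regulators of cholesterol and fatty acid synthesis in mouse regulatory T cells (TR). They were taken as named genes of the authors' normalized table: 28 were listed and 26 were held, out of 14011 symbols in that table. The 26 were 3 regulators (Srebf1, Srebf2, Insig1), 16 genes of the cholesterol branch and 7 of the fatty acid branch, and the branches were treated apart. Expression of Hmgcs1 was not analysed here, and only its promoter window is described. Fads2 had 2 counts, in 1 library, in the count table, so it was not tested. All 26 held genes passed the filter on low counts, Scd1 only through libraries where it was high, as described below.

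RNA of 18 libraries was sequenced, each from 500 sorted CD4+ T cells. The cells came from 3 littermate mice (84, 86 and 87) on the C57BL/6 background that carried Id3-GFP and Foxp3-mRFP as reporters of the genes Id3 and Foxp3. Id3 encodes an inhibitor of E protein transcription factors, and Foxp3 encodes the factor that defines TR. Each mouse gave spleen and peripheral lymph node, and from each tissue 3 populations: Id3+ central TR (CD62L high, CD44 low; below, Id3+ cTR), Id3+ effector TR (CD62L low, CD44 high; Id3+ eTR) and Id3- effector TR (Id3- eTR), whose label gives no CD62L or CD44 gate. The labels give no treatment, age or sex. The 6 groups of 3 libraries therefore came from the same 3 mice. The main fit had no term for mouse, so its p-values measure the spread of libraries within groups, with the pairing left out. In comparisons that join groups, the 9 libraries of a tissue stand for 3 mice.

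Cells make cholesterol from acetyl-CoA through mevalonate, isoprenoids and squalene, and make fatty acids from the same precursor through malonyl-CoA. SREBP transcription factors switch on both branches when membrane sterol is low, and INSIG proteins hold them back when it is ample. Lymphocytes raise both branches when they grow and divide, and in TR the mevalonate route has been tied to suppressive function.

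Totals per library ran from 1600782 to 3153325 counts. Spleen Id3+ cTR of mice 84 and 87 had the lowest totals and the highest mitochondrial shares of counts (0.652% and 0.579%). The highest total and the lowest mitochondrial share (0.288%) belonged to spleen Id3+ eTR of mouse 84. These 3 libraries stood apart, and results that change without them are given both ways. Foxp3 was present in all libraries, at 238 to 374 CPM (counts scaled to one common library size). In bulk libraries, fewer cells of a type and less RNA per cell cannot be told apart.

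Promoter sequences were available for 19 of the 26 genes, as RefSeq windows on GRCm38.p6 from 250 bases before to 50 bases after each annotated start. Fdps, Fdft1, Sqle, Stard4, Scd1, Scd2 and Fads1 had no entry. The 5 letters CCAAT, on either strand, are those bound by NF-Y, a factor known to act beside SREBP. In the cholesterol branch, 12 of 13 listed genes with a window held them (92.3%, Hmgcs1 included), against 41.1% of the 27025 genes with a window. All 3 regulators and 2 of 5 fatty acid genes (40%: Acly and Fasn) held them too. TCACNCCAC, a core of the SREBP element, was found in 1 listed gene (Hmgcs1) and in 1.44% of all genes, and CACGTG in 3 of 13 cholesterol genes (23.1%; Dhcr7, Hsd17b7, Sc5d) and 8.09% of all genes, on either strand. These matches are descriptions of letters in a window, and the libraries did not measure binding. The 250 bases before the start of 3 genes show the spacing, with capitals on CCAAT or its reverse complement ATTGG. Mvk, which differed between populations, held 5 copies at chr5:114444019-114444268 (plus strand). Msmo1 held 3 copies, all on the sense strand, at chr8:64733579-64733828 (minus strand). Fasn, the fatty acid synthase, held 3 copies at chr11:120824548-120824797 (minus strand), of which 1 pair overlaps as a single run.
Mvk: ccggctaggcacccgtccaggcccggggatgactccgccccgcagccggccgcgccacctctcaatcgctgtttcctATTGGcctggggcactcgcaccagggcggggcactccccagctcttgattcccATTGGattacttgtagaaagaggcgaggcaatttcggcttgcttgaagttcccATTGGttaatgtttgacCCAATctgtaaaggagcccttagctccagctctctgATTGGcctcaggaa
Msmo1: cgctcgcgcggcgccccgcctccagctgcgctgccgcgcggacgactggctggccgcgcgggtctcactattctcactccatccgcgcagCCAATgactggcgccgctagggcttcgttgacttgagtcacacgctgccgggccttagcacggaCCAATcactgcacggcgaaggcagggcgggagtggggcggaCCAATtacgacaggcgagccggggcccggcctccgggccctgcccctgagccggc
Fasn: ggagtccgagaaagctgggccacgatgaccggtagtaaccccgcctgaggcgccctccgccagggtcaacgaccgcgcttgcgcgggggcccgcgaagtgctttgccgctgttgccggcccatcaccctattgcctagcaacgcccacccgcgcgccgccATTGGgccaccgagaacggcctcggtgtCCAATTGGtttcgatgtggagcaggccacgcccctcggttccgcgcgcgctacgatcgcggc

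Levels per kilobase of merged exon placed the genes over the 18 libraries. Acly, which cleaves citrate to cytosolic acetyl-CoA, was highest at 37 ± 9.88 CPM per kb (SD, n = 18). It was followed by Nsdhl and Mvd, a sterol decarboxylase and the mevalonate pyrophosphate decarboxylase, at 27.9 ± 6.05 and 26 ± 9.25 CPM per kb. The lower end held Idi1 (isopentenyl diphosphate isomerase) at 0.767 ± 0.395, Acaca (acetyl-CoA carboxylase) at 0.599 ± 0.19 and Scd1 (stearoyl-CoA desaturase) at 0.294 ± 0.571 CPM per kb. Sqle and Fdft1, the genes with the clearest differences between the tissues, stood in the middle of the order at 6.46 ± 4.53 and 14.6 ± 4.79 CPM per kb. Lengths are unions of annotated exons, so a gene with long, little-used exons is understated. Neighbours in this order mostly differed by less than their SD.

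Most genes of the cholesterol branch had lower fitted levels in lymph node than in spleen TR, and 2 passed the test. Over the mean of the 3 populations, edgeR called 2 of the 16 genes lower and none higher at an adjusted p under 0.05. They were Fdft1, whose enzyme makes squalene, and Sqle, whose enzyme then oxidises it. In this comparison 0.924% of all 12445 genes tested were called (115 genes). On the log2 scale 14 of the 16 genes lay below 0, with a median of -0.46, against 51.3% of all genes and a median of -0.01. Unadjusted p-values were under 0.05 and lower for 8 of the 16, against 6.34% of all genes. The 2 genes above 0 were Pmvk (phosphomevalonate kinase; log2 change 0.27 ± 0.27, SE) and Sc5d (a sterol desaturase; 0.06 ± 0.11).

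Sqle encodes squalene epoxidase, a rate-limiting step of cholesterol synthesis. In spleen, mice 84, 86 and 87 had 85.2, 60.3 and 58.0 CPM in Id3+ cTR, 85.4, 54.5 and 31.1 in Id3+ eTR, and 46.4, 48.5 and 19.8 in Id3- eTR. In lymph node the same mice had 35.6, 29.1 and 18.1 CPM in Id3+ cTR, 19.6, 9.66 and 15.9 in Id3+ eTR, and 8.65, 9.13 and 9.63 in Id3- eTR. Each lymph node library was below the spleen library of the same mouse and population. The tissue ranges overlapped all the same. Spleen Id3+ eTR and Id3- eTR of mouse 87 reached below the highest lymph node libraries, which were Id3+ cTR of mice 84 and 86. The means were 54.4 ± 21.8 CPM in spleen and 17.3 ± 9.62 in lymph node (SD, n = 9), and the fitted difference was 3.38-fold (log2 change -1.76 ± 0.24; edgeR adjusted p = 0.00116). Leaving out each of the 18 libraries in turn kept the adjusted p between 4.98e-04 and 0.00424.

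Fdft1 encodes squalene synthase, which commits farnesyl diphosphate to sterols. Spleen libraries of mice 84, 86 and 87 had 107, 74.7 and 76.5 CPM in Id3+ cTR, 59.0, 93.6 and 57.1 in Id3+ eTR, and 82.0, 68.3 and 68.5 in Id3- eTR. Lymph node libraries had 73.1, 42.7 and 43.0 CPM in Id3+ cTR, 38.7, 39.4 and 43.3 in Id3+ eTR, and 53.5, 44.9 and 41.7 in Id3- eTR. Apart from the Id3+ cTR of mouse 84, every lymph node library lay below every spleen library. The difference was 1.64-fold (log2 change -0.71 ± 0.14; edgeR adjusted p = 0.018; lower in 9 of 9 pairs). Without the 3 spleen libraries that stood apart, the log2 change was -0.68 with an adjusted p of 0.0867, so the call ended, while that of Sqle was kept.

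**Figure D1:**
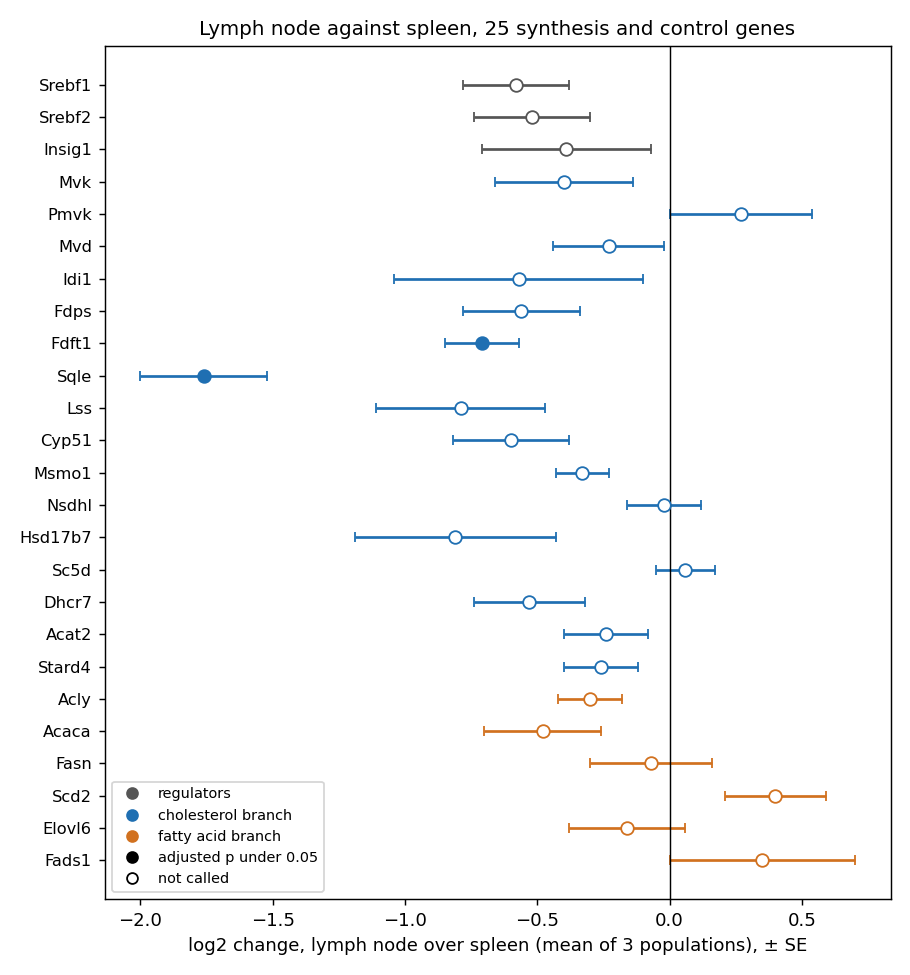
Log2 change of lymph node over spleen, mean of the 3 populations, for 25 genes (horizontal axis, ± SE; filled points: adjusted p under 0.05; Scd1 left out for its low counts). The cholesterol branch genes lie below 0 except Pmvk and Sc5d, with Sqle at -1.76 and Fdft1 at -0.71.

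Pairs of the same mouse were also compared. Among the 9 pairs of the same mouse and population, Fdps, Fdft1, Sqle and Acly were lower in lymph node in all 9, as were 0.787% of all genes. Msmo1, Hsd17b7, Dhcr7, Elovl6 and Insig1 were lower in 8 of 9, and 3.92% of all genes were lower in 8 or 9. Fdps, farnesyl diphosphate synthase, fell short of the adjusted threshold at a log2 change of -0.56 ± 0.22 (edgeR adjusted p = 0.282). Its spleen libraries ran from 17.4 to 44.2 CPM with a median of 30.5, and its lymph node libraries from 8.56 to 26.1 with a median of 23.9. The tissue ranges of all 26 genes overlapped; those of 7 genes of the whole table (0.0562%) did not, with lymph node below.

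Of the other late sterol steps, Lss, Cyp51, Msmo1, Dhcr7, Hsd17b7 and Nsdhl had log2 changes below 0 without passing the adjusted threshold. Lanosterol synthase Lss had a log2 change of -0.79 ± 0.32 and the lanosterol demethylase Cyp51 of -0.60 ± 0.22. The C-4 methylsterol oxidase Msmo1, at 118 to 193 CPM in spleen and 92.7 to 139 in lymph node, had the smallest error (-0.33 ± 0.10; unadjusted p = 0.00395). Dhcr7, the reductase of the last step, was at -0.53 ± 0.21, and Hsd17b7, a sterol ketoreductase, at -0.81 ± 0.38. In spleen, mice 84, 86 and 87 had 20.2, 11.6 and 13.6 CPM of Hsd17b7 in Id3+ cTR, 16.1, 6.51 and 17.9 in Id3+ eTR, and 11.2, 10.8 and 24.0 in Id3- eTR. In lymph node they had 19.3, 7.28 and 10.3, then 9.56, 1.93 and 4.50, then 15.3, 9.13 and 2.495 CPM. Both tissues overlapped widely for Hsd17b7, and its lowest libraries were in lymph node. Nsdhl did not separate the tissues, at a log2 change of -0.02 ± 0.14.

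Among the genes of the mevalonate steps and sterol transport, Acat2, a cytosolic thiolase, was at -0.24 ± 0.16, mevalonate kinase Mvk at -0.40 ± 0.26 and Mvd at -0.23 ± 0.21 on the log2 scale. Idi1 was at -0.57 ± 0.47 with few counts behind it (122 over 18 libraries). Stard4, which carries cholesterol between membranes, was at -0.26 ± 0.14. None of these passed the adjusted threshold.

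The fatty acid branch had 0 of 7 genes called between the tissues by edgeR, DESeq2 or limma-voom, and 2 at an unadjusted p under 0.05, both lower: Acly at -0.30 ± 0.12 and Acaca at -0.48 ± 0.22. Of the 7 genes, 5 lay below 0, with a median of -0.16. The median was -0.05 without lymph node Id3+ eTR of mouse 84, -0.27 without lymph node Id3+ eTR of mouse 87 and -0.29 without lymph node Id3+ cTR of mouse 87. Without Scd1, whose fitted change rests on few counts, 4 of 6 lay below 0, with a median of -0.12. Scd2, the other stearoyl-CoA desaturase, lay above 0 at 0.40 ± 0.19, and Fads1, a fatty acid desaturase, at 0.35 ± 0.35. Fatty acid synthase Fasn was at -0.07 ± 0.23 and the elongase Elovl6 at -0.16 ± 0.22. Whether the branches differ from each other was not tested.

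The regulators all lay below 0 between the tissues (median -0.52), and edgeR called 0 of 3; DESeq2 and limma-voom called none either. Srebf1, which drives mainly the fatty acid branch, had a log2 change of -0.58 ± 0.20 (unadjusted p = 0.00902), and Srebf2, which drives mainly the cholesterol branch, of -0.52 ± 0.22 (unadjusted p = 0.0301). Insig1, an SREBP target that retains SREBP in the endoplasmic reticulum, was at -0.39 ± 0.32. In spleen Id3+ eTR, the library of mouse 84 had 249 CPM of Srebf2 and 121 of Srebf1, against 71.1 to 87.5 and 45.9 to 47.2 in the other two mice. That library held the highest value of 10 of the 26 genes (Acly, Dhcr7, Fasn, Insig1, Lss, Mvk, Scd2, Sqle, Srebf1 and Srebf2). Without it the median of the regulators was -0.33. Without the 3 libraries that stood apart, all 3 regulators still lay below 0 (median -0.38), as did 14 of 16 cholesterol genes (median -0.37).

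Summed levels were lower in lymph node for the cholesterol genes and close for the fatty acid genes. The 16 cholesterol genes together had 849 ± 122 CPM in spleen and 667 ± 66.1 in lymph node (SD, n = 9). By population, spleen Id3+ cTR, Id3+ eTR and Id3- eTR had 925 ± 124, 877 ± 92.6 and 746 ± 98.8 CPM, and lymph node 675 ± 72.5, 619 ± 35.6 and 708 ± 69.4 (SD, n = 3). The 7 fatty acid genes had 364 ± 103 CPM in spleen and 327 ± 28.7 in lymph node. The highest fatty acid sum, 622 CPM, belonged to spleen Id3+ eTR of mouse 84.

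**Figure D2:**
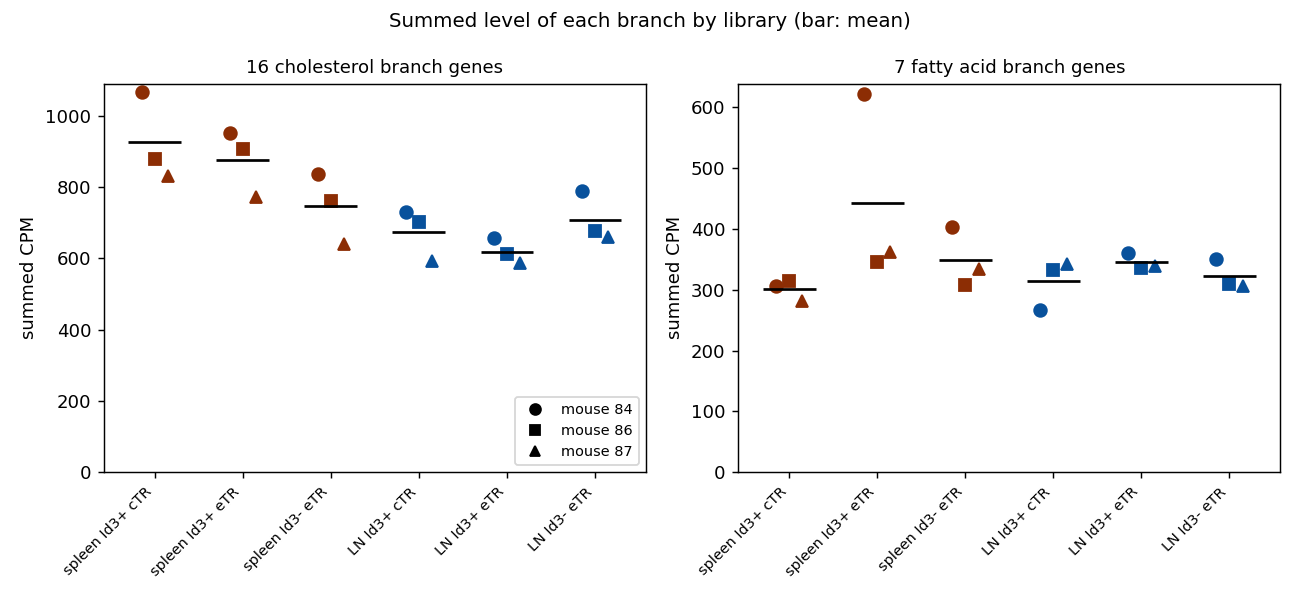
Summed CPM of the 16 cholesterol branch genes (left) and the 7 fatty acid branch genes (right) in each library, by group (bar: mean of 3 mice; marker shape: mouse; red: spleen, blue: lymph node). Spleen cholesterol sums ran from 640 to 1066 CPM and lymph node sums from 586 to 788; the fatty acid sum of spleen Id3+ eTR of mouse 84 stands above all others.

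Within single populations edgeR called none of the 26 genes between the tissues, where it called 0.00804% of all genes for Id3+ cTR, 0.289% for Id3+ eTR and 0.305% for Id3- eTR. Unadjusted p-values were under 0.05 for 6, 8 and 2 of the 26, against 7.77%, 11.9% and 7.91% of all genes. DESeq2 called 0, 2 (Sqle and Srebf2) and 1 (Sqle), and limma-voom 0 in each. For Srebf2 in Id3+ eTR, edgeR gave a log2 change of -1.43 (adjusted p = 0.153), and of -0.64 (adjusted p = 0.582) without spleen Id3+ eTR of mouse 84. The log2 change of Sqle was -1.29 ± 0.39 in Id3+ cTR, -1.93 ± 0.41 in Id3+ eTR (adjusted p = 0.0608) and -2.05 ± 0.42 in Id3- eTR (adjusted p = 0.0504). With mouse as a replicate block, the last 2 were called (-1.83, adjusted p = 0.0435, and -1.97, adjusted p = 0.026). Without the 3 libraries that stood apart, the Id3- eTR change was called as well (-2.06, adjusted p = 0.0492).

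Cholesterol genes lay below 0 in 14 of 16 cases in Id3+ cTR (median -0.52), 15 of 16 in Id3+ eTR (-0.51) and 10 of 16 in Id3- eTR (-0.06). For all genes the medians were 0.00 in each population. Besides Sqle, Cyp51 was at -1.25 ± 0.39 in Id3+ cTR and Lss at -1.80 ± 0.56 in Id3+ eTR, while Lss in Id3- eTR was at 0.38 ± 0.55. Those population differences were tested as interactions, and 0 of the 26 genes were called by edgeR, DESeq2 or limma-voom in any of the 3. At an unadjusted p under 0.05 there were 2 genes (Acat2 and Acaca) for Id3- eTR against Id3+ cTR, 1 (Srebf2) for Id3+ eTR against Id3+ cTR, and 4 (Mvd, Lss, Msmo1 and Srebf2) for Id3- eTR against Id3+ eTR. The shares of all genes were 6.88%, 9.48% and 6.03%. Of all genes, edgeR called 0.0241% in the first interaction and 0% in the other two.

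**Figure D3:**
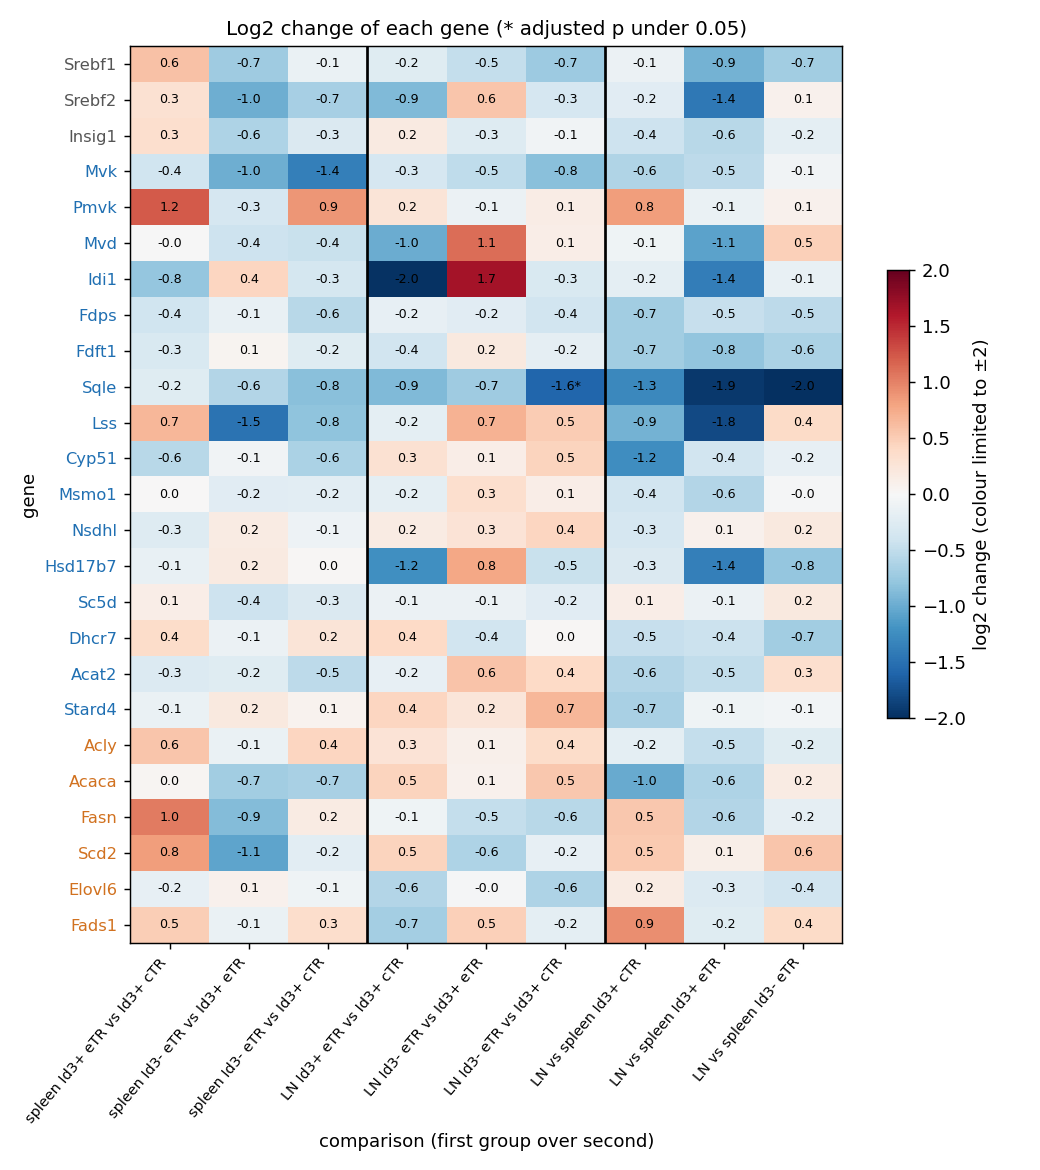
Log2 change (first group over second; * adjusted p under 0.05) of 25 genes in 9 comparisons: 3 between populations in each tissue and 3 between tissues. Scd1 is left out for its low counts, and the only star is that of Sqle in lymph node Id3- eTR over Id3+ cTR (-1.59, drawn as -1.6).

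Between populations, Mvk and Sqle were lower in Id3- eTR than in Id3+ cTR, Scd1 was lower than there in both effector populations, and Scd2 was lower in Id3- than in Id3+ eTR. In Id3- eTR against Id3+ cTR, over the mean of the tissues, edgeR called 3 of the 26 genes, all lower. Of all genes, 22.7% were called in this comparison, so 3 of 26 is below the background share. Id3+ eTR against Id3+ cTR gave 1 call, Scd1 (9.84% of all genes), and Id3- eTR against Id3+ eTR 1 call, Scd2 (7.95%). The Scd1 calls are only descriptions, because that gene passed the filter on low counts through Id3+ cTR alone. The first 2 comparisons share the Id3+ cTR libraries. Below, some genes are said to separate populations without overlap, or to keep 1 direction in all pairs of mouse and tissue. The share of all genes that do so was not counted, so these statements only describe the values.

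Sqle was 2.31-fold lower in Id3- eTR than in Id3+ cTR (log2 change -1.21 ± 0.29; edgeR adjusted p = 0.00529; lower in 6 of 6 pairs of mouse and tissue). Id3+ eTR lay between, at -0.56 ± 0.28 against Id3+ cTR (adjusted p = 0.251). In lymph node alone, Id3- eTR differed from Id3+ cTR by -1.59 ± 0.42 (adjusted p = 0.0186; 12.9% of all genes called), as the libraries given above show without overlap. Of the 6 libraries compared, leaving out any but Id3+ cTR of mouse 87 ended the call. The adjusted p was then 0.0677 (mouse 84), 0.0577 (86) and 0.0551 (87) for a left-out Id3- eTR library, and 0.0792 (84) and 0.0533 (86) for a left-out Id3+ cTR library. Using limma-voom instead gave 0.113. In spleen the change was -0.83 ± 0.39 (adjusted p = 0.196).

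Mvk phosphorylates mevalonate. In Id3+ cTR, mice 84, 86 and 87 had 35.8, 31.6 and 22.8 CPM in spleen and 18.2, 24.1 and 17.0 in lymph node. In Id3+ eTR they had 39.5, 6.92 and 21.8 CPM in spleen and 18.2, 18.6 and 10.7 in lymph node. In Id3- eTR they had 12.2, 10.4 and 12.2 CPM in spleen and 12.6, 10.2 and 10.3 in lymph node. All 6 Id3- eTR libraries lay below all 6 Id3+ cTR libraries, and the Id3+ eTR of spleen scattered over the whole range. The difference between Id3- eTR and Id3+ cTR was 2.15-fold (log2 change -1.10 ± 0.32; edgeR adjusted p = 0.0179), and stayed at 0.0206 to 0.0474 as single libraries were left out.

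Scd1, which introduces the double bond of oleate, was found mainly in central TR, which held 33 and 22 of its 59 counts. In spleen Id3+ cTR, mice 84, 86 and 87 had 0, 17 and 16 counts, and in lymph node 2, 8 and 12. The 4 effector groups had 4 counts in all: 2 in spleen Id3+ eTR, 1 in spleen Id3- eTR, 0 in lymph node Id3+ eTR and 1 in lymph node Id3- eTR. For ratios, the counts of a group were pooled and divided by its pooled scaled totals. In spleen, this level in Id3+ cTR was 23.4-fold that in Id3+ eTR (95% exact interval 5.99 to 201). It was 45.4-fold that in Id3- eTR (7.6 to 1848). In lymph node the level was 21-fold that in Id3- eTR (3.4 to 868). Lymph node Id3+ eTR had 0 counts. With 3 counts put in their place, the ratio was 6.58-fold, without an interval for counting error. The intervals cover counting error only. The spleen Id3+ cTR of mouse 84, one of the 3 libraries that stood apart, was the only central library without a count. Over the mean of the tissues edgeR called Scd1 lower in Id3- eTR (adjusted p = 0.0132) and in Id3+ eTR (adjusted p = 0.0202). The Id3+ eTR call was lost without spleen Id3+ cTR of mouse 87 (0.059), lymph node Id3+ cTR of mouse 87 (0.055) or lymph node Id3+ eTR of mouse 86 or 87 (0.0505 and 0.0527), and without the 3 libraries that stood apart (0.0784).

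Scd2, by contrast, had counts in all 18 libraries. Id3+ cTR of mice 84, 86 and 87 had 50.7, 38.0 and 30.2 CPM in spleen and 53.8, 48.9 and 67.1 in lymph node. Id3+ eTR had 92.5, 46.0 and 73.5 CPM in spleen and 81.7, 78.1 and 71.7 in lymph node, and Id3- eTR 48.2, 37.2 and 17.4 in spleen, with lymph node values of 58.6, 35.4 and 56.7. Id3+ eTR was the highest population in every mouse and tissue. Against it, Id3- eTR was 1.78-fold lower (log2 change -0.83 ± 0.23; edgeR adjusted p = 0.0352; lower in 6 of 6 pairs), and Id3+ cTR was not called (Id3+ eTR over Id3+ cTR 0.64 ± 0.23; adjusted p = 0.0979). The Id3- eTR call was kept in only 3 of the 12 fits that left out 1 library, those without spleen or lymph node Id3- eTR of mouse 84 or without spleen Id3+ eTR of mouse 86. In the other 9 the adjusted p was 0.053 to 0.0857, and without the 3 libraries that stood apart 0.0987. Scd1 and Scd2 are close paralogs, and the sources used here do not say how reads matching both were counted.

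**Figure D4:**
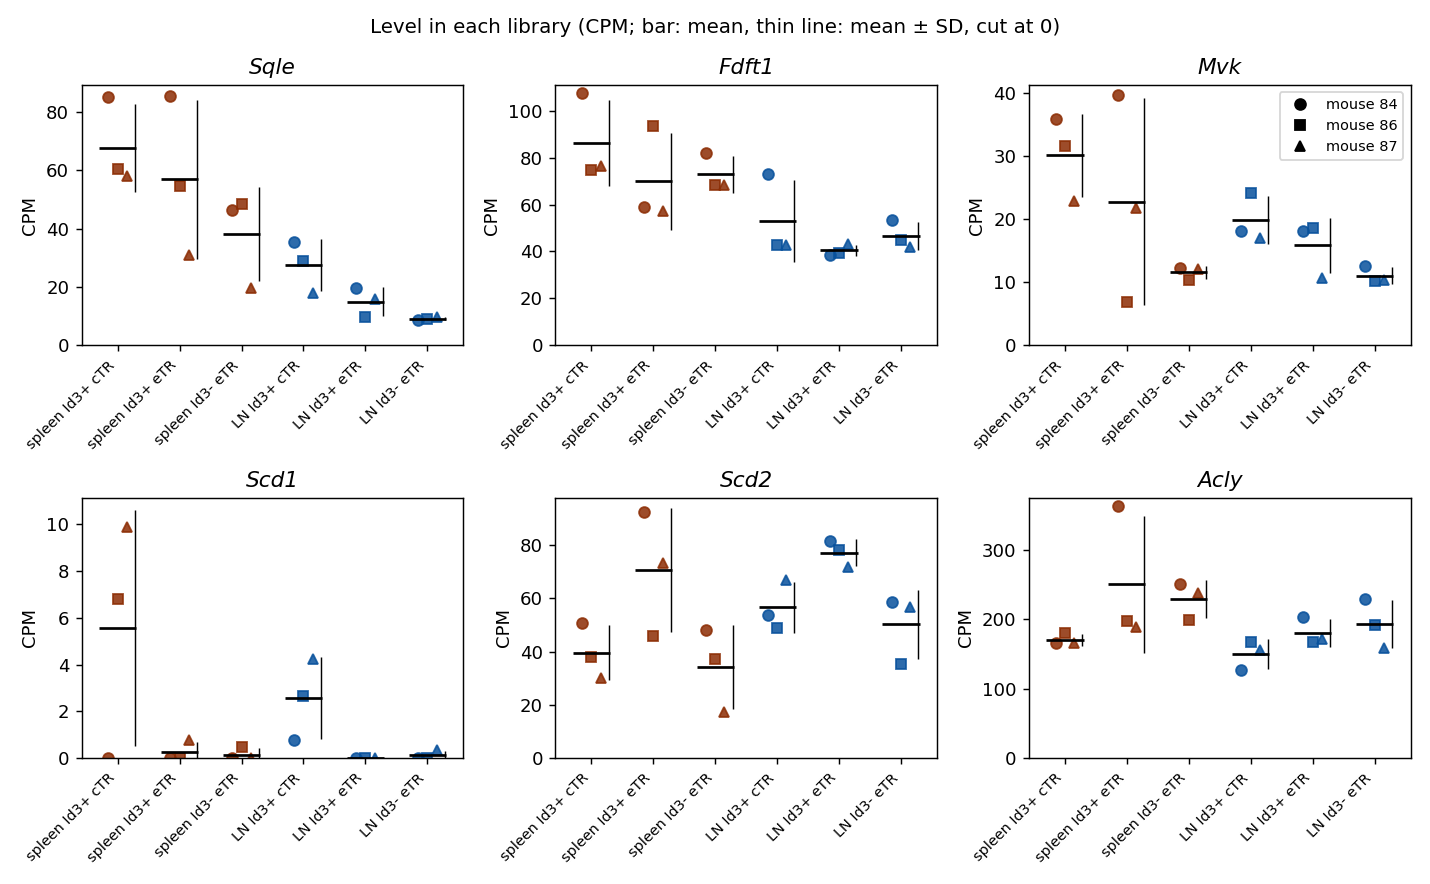
CPM of Sqle, Fdft1, Mvk, Scd1, Scd2 and Acly in each library, by group (bar: mean; thin line: ± SD of 3 mice, cut at 0; marker shape: mouse; red: spleen, blue: lymph node). Sqle is lower in lymph node for each population, Scd1 is seen mainly in Id3+ cTR, and Scd2 peaks in Id3+ eTR.

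Genes of the fatty acid branch that were not called leaned in both directions. Acly had 165, 181 and 165 CPM in spleen Id3+ cTR of mice 84, 86 and 87, 363, 198 and 189 in Id3+ eTR, and 251, 199 and 238 in Id3- eTR. In lymph node it had 126, 168 and 155 CPM in Id3+ cTR, 203, 167 and 171 in Id3+ eTR, and 229, 191 and 159 in Id3- eTR. Id3- eTR exceeded Id3+ cTR in 6 of 6 pairs, and the groups overlapped in lymph node but not in spleen. The log2 change was 0.40 ± 0.15 for Id3- eTR (edgeR adjusted p = 0.0638) and 0.41 ± 0.15 for Id3+ eTR (adjusted p = 0.0959) against Id3+ cTR. DESeq2 called both (adjusted p = 0.0288 and 0.0478), and limma-voom neither (0.0996 and 0.177). With single libraries left out, edgeR did not call the Id3- eTR change in 11 of 12 fits (adjusted p up to 0.153; 0.0391 without lymph node Id3- eTR of mouse 87) or the Id3+ eTR change in 10 of 12 (up to 0.207; 0.0472 and 0.0356 without spleen Id3+ eTR of mouse 86 or 87). Without spleen Id3+ eTR of mouse 84 the Id3+ eTR change was 0.23, and without the 3 libraries that stood apart 0.18. In a fit of the compared groups only, the Id3- eTR change was called (adjusted p = 0.0105).

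Fasn in spleen had 28.6, 42.0 and 32.1 CPM in Id3+ cTR of mice 84, 86 and 87, 120, 43.5 and 47.4 in Id3+ eTR, and 59.0, 30.1 and 26.1 in Id3- eTR. Its lymph node values were 40.5, 70.1 and 39.4, then 40.6, 50.6 and 50.6, then 26.7, 31.8 and 43.5 CPM. Id3- eTR was below Id3+ eTR in 6 of 6 pairs, although the groups overlapped, at a log2 change of -0.67 ± 0.28 (edgeR adjusted p = 0.166). Elovl6, which lengthens palmitate, had 33.2, 26.0 and 27.8 CPM in spleen Id3+ cTR, 16.8, 29.3 and 31.5 in Id3+ eTR, and 23.4, 27.3 and 31.3 in Id3- eTR. In lymph node it had 29.2, 20.5 and 47.6, then 10.5, 23.6 and 29.8, then 16.5, 23.4 and 23.2 CPM. Within each tissue the Elovl6 groups overlapped, and its log2 change against Id3+ cTR was -0.35 ± 0.26 for Id3- eTR and -0.38 ± 0.26 for Id3+ eTR. Over the mean of the tissues, Acaca and Fads1 lay within 0.25 of 0 in both comparisons with Id3+ cTR. For Acaca in Id3- eTR that mean joins -0.65 ± 0.39 in spleen and 0.54 ± 0.39 in lymph node, and for Fads1 in Id3+ eTR it joins 0.49 ± 0.61 and -0.68 ± 0.60.

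In the cholesterol branch, Idi1 and Pmvk had the largest changes from Id3+ cTR over the mean of the tissues among the genes not called. Idi1 had 3.25, 6.39 and 1.85 CPM in spleen Id3+ cTR of mice 84, 86 and 87, 2.35, 2.44 and 1.94 in Id3+ eTR, and 2.52, 4.24 and 2.43 in Id3- eTR. In lymph node it had 3.03, 3.97 and 3.195, then 1.43, 1.16 and 0, then 3.14, 3.29 and 1.78 CPM. Lymph node Id3+ eTR was the lowest group without overlap, and the log2 change of Id3+ eTR against Id3+ cTR was -1.38 ± 0.59 (edgeR adjusted p = 0.175). Pmvk had 24.1, 4.80 and 10.5 CPM in spleen Id3+ cTR, 21.8, 30.1 and 38.1 in Id3+ eTR, and 37.1, 17.0 and 17.0 in Id3- eTR. In lymph node it had 28.8, 17.2 and 22.7, then 30.6, 20.5 and 30.8, then 18.1, 35.1 and 22.8 CPM. Its groups overlapped, with the lowest values in spleen Id3+ cTR of mice 86 and 87, and its change in Id3+ eTR was 0.74 ± 0.34 (adjusted p = 0.2). Without the 3 libraries that stood apart, Pmvk was called higher than in Id3+ cTR in both Id3+ eTR (1.54, adjusted p = 0.032) and Id3- eTR (1.22, adjusted p = 0.0383), with 1 spleen Id3+ cTR library remaining; without spleen Id3+ cTR of mouse 84 alone it was called in Id3+ eTR (1.13, adjusted p = 0.0374).

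Over the mean of the tissues, the median of the cholesterol genes between populations lay closer to 0 than between lymph node and spleen. For Id3- eTR against Id3+ cTR, 12 of 16 cholesterol genes lay below 0 with a median of -0.15. So did 5 of 7 fatty acid genes, with a median of -0.19 (-0.12 without Scd1). Of all genes, 50.1% lay below 0, with a median of 0.00. The cholesterol median was -0.32 in spleen (12 of 16 below 0) but 0.07 in lymph node (7 of 16). For Id3+ eTR against Id3+ cTR the counts were 11 of 16 (median -0.17) and 3 of 7 (0.25, or 0.33 without Scd1). Its cholesterol median was -0.20 in spleen and -0.18 in lymph node, and its fatty acid median 0.49 and -0.08. Id3- eTR against Id3+ eTR gave 7 of 16 (0.04) and 4 of 7 (-0.01, or -0.15 without Scd1). That cholesterol median joins -0.19 in spleen (11 of 16 below 0) and 0.22 in lymph node (6 of 16). The fatty acid median was -0.69 in spleen and 0.09 in lymph node. Over the mean of the tissues, Srebf1, Srebf2 and Insig1 were below 0 in Id3- eTR against both Id3+ populations, with medians of -0.43 and -0.44. None was called by edgeR, with 0 and 1 (Srebf1) at an unadjusted p under 0.05 (33.5% and 20.7% of all genes). Against Id3+ eTR, all 3 lay below 0 in spleen (median -0.71) and 2 of 3 in lymph node (median -0.26). Srebf2 was the exception there, at 74.4 ± 6.69 CPM in Id3- eTR and 50.5 ± 11.1 in Id3+ eTR (SD, n = 3). The highest value of each regulator was in spleen Id3+ eTR of mouse 84.

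Within each tissue, edgeR called few genes of the branches. In spleen the counts were 0 of 26 in Id3- eTR against Id3+ cTR (12.3% of all genes), 0 in Id3+ eTR against Id3+ cTR (4.32%) and 0 in Id3- eTR against Id3+ eTR (3.28%). Unadjusted p-values were under 0.05 for 3, 5 and 7 of the 26 in these comparisons (25.1%, 20% and 16.3% of all genes). DESeq2 called Mvk in the first (adjusted p = 0.0367) and Scd2 in the last (0.0421), and limma-voom called none. In lymph node the counts were 1 (Sqle, above), 0 (5.66%) and 0 (2.62%), and 3, 5 and 1 at an unadjusted p under 0.05 (24.9%, 16.5% and 13.1% of all genes). For the first, DESeq2 called Sqle and Stard4 (adjusted p of Stard4 0.046, higher in Id3- eTR); for the last 2 it called none, as did limma-voom.

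Of 42 further genes of the pathways, 37 were tested. In Id3- eTR against Id3+ cTR, over the mean of the tissues, 6 were called higher and 5 lower (22.7% of all genes called). Hacd3, a dehydratase of very long fatty acid elongation, was higher (log2 change 1.12 ± 0.11; edgeR adjusted p = 9.84e-07), as were Soat1, which esterifies cholesterol (1.08 ± 0.26), and Mid1ip1, which activates acetyl-CoA carboxylase (1.11 ± 0.29). Acsl3 (acyl-CoA synthetase; -1.87 ± 0.31), Acss2 (acetyl-CoA synthetase; 2-fold, SE 0.24 on the log2 scale) and Acat1 (mitochondrial thiolase; -0.43 ± 0.10) were lower. Npc2, which moves cholesterol out of lysosomes, was lower in Id3+ eTR than in Id3+ cTR (-0.52 ± 0.08; adjusted p = 0.000202). Elovl1, an elongase, was higher in Id3- eTR than in Id3+ eTR (0.37 ± 0.07; adjusted p = 0.00414). These genes belong to ester storage, acyl activation and elongation, and their directions were mixed. Id3+ eTR against Id3+ cTR had 2 higher and 2 lower (9.84% of all genes called), and Id3- eTR against Id3+ eTR 3 higher and 2 lower (7.95%).

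Markers of other cells were listed to set beside these results. Between the tissues, over the mean of populations, edgeR called 2 of 6 erythroid and platelet genes lower in lymph node and 1 of 10 cell cycle genes higher, and none of the tested B cell (5), myeloid and dendritic (5) or CD8 T and NK genes (4). The summed level of 6 erythroid and platelet genes was 10.1 to 202 CPM in spleen and 1.14 to 9.498 in lymph node, without overlap. The sum of 10 cell cycle genes was 152 to 527 CPM in spleen and 191 to 867 in lymph node (medians 218 and 299), and was highest in Id3- eTR in both tissues (361 to 527 and 558 to 867). The 7 myeloid and dendritic genes summed to 137 to 292 CPM in spleen and 141 to 431 in lymph node, and the 6 B cell genes to 55.9 to 219 and 97.6 to 162. The 6 CD8 T and NK genes summed to 35.1 to 113 and 47.8 to 96.0 CPM, with Ncr1 at 0 in all libraries. Of 5 stromal and endothelial genes, Pdgfrb, Col3a1 and Cdh5 were at 0 in all libraries. The erythroid sum was highest in spleen Id3+ cTR (120 to 202 CPM), the group that also had the highest mean of Sqle and Fdft1. Between populations, in Id3- eTR against Id3+ cTR over the mean of the tissues, 4 of 5 myeloid and dendritic genes were called higher (median log2 change 2.24), and 6 of 10 cell cycle genes (2.71). Of 5 B cell genes 1 was called higher and 1 lower (median -2.43), of 4 CD8 T and NK genes 1 higher (-0.57), and of 6 erythroid and platelet genes 1 higher (-0.51). Against Id3+ cTR, Id3+ eTR had 1 myeloid and dendritic, 1 B cell, 1 CD8 T and NK and 3 cell cycle genes called higher. Against Id3+ eTR, Id3- eTR had 4 cell cycle genes called higher and none of the other lists. In lymph node Id3+ cTR had a myeloid and dendritic sum of 152 ± 13.6 CPM, Id3+ eTR of 340 ± 111 and Id3- eTR of 335 ± 23.1, and in spleen the same populations had 194 ± 64.6, 189.8 ± 57.0 and 271 ± 32.7 (SD, n = 3). The part of these markers in the results was not tested.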

How the data were processed

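The authors deposited 1 table of whole-number counts per gene (37991 genes, not normalized) and 1 table of normalized signal for 14011 symbols. Of the values matched by symbol (13883 symbols), 99.982% of the normalized signal equalled the deposited count times 1 factor per library within 0.1%. Per the submitters' processing notes the tools included TopHat, Bowtie, SAMtools, Picard, FastQC and HTSeq 0.4.1; build, annotation and strand setting are not given in the sources used here. Cells were lysed directly into SMART-Seq v4 buffer and libraries made by a modified Nextera XT protocol, per the labels' protocols, which does not mark strand, so overlapping antisense genes cannot be told apart.

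Gene names and exon lengths came from GENCODE M21. Genes were kept with filterByExpr (minimum count 10; 12445 genes), scaled by TMM, and fitted in 1 model of the 6 groups with 12 residual degrees of freedom by edgeR 4.0.16 (robust quasi-likelihood test, two-sided) in R 4.3.3. Benjamini-Hochberg adjustment ran over all genes tested, and "called" means an adjusted p below 0.05. CPM uses TMM-scaled totals. There were 16 contrasts: 3 pairs of populations in each tissue and over their mean, lymph node against spleen in each population and over their mean, and 3 interactions. Alternatives used DESeq2 1.42.0, limma 3.58.1 (log2 of the authors' normalized values plus 1 in its second use), RLE scaling, no filter, only the compared groups, a mouse block and left-out libraries. Data were simulated for the tissue comparison over the mean of populations (12140 genes, 200 of them changed, no mouse effect). Of genes changed by 1.5, 2 and 4-fold, 46.3%, 62.7% and 75.8% were called. That simulation gave 127 calls in all, against 115 in the data.

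Libraries are paired by animal. Deviations from the group means of libraries of the same mouse correlated weakly (median r 0.019 over 45 pairs of libraries, none above 0.1). All held genes are named, with every library's value for those called and for the 3 of each branch with the largest change among the others; up to 8 further pathway genes are named by smallest adjusted p. The genes and lists were chosen with earlier results of these data known. The comparison of the further pathway genes between the tissues is not reported here.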

Additional observations from a re-analysis of the deposited data

How the results depend on the processing

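Changes called with all 18 libraries by edgeR kept their sign in every alternative run for them. Between the tissues over the mean of populations, 2 genes were called in every alternative except the one without the 3 spleen libraries that stood apart (1, Sqle); 13 to 14 cholesterol and 4 to 5 fatty acid genes lay below 0 as single libraries were left out, so single genes near 0 changed sign. Tissue calls in Id3+ eTR rose from 0 to 1 (Sqle) with no filter or a replicate block for mouse and 2 with DESeq2. In Id3- eTR they rose from 0 to 1 (Sqle) with no filter, the block, DESeq2, the authors' normalized table, and without the 3 libraries. The mouse block changed no other count of calls. Between populations, spleen Id3- eTR against Id3+ cTR had 0 calls but 1 with DESeq2 and 2 in a fit of the compared groups only (Mvk, Acly), and against Id3+ eTR 0 but 1 with DESeq2. Lymph node Id3- eTR against Id3+ cTR had 1, but 2 with DESeq2 and 0 with limma-voom. Over the mean of tissues, Id3+ eTR against Id3+ cTR had 1, but 2 with DESeq2; Id3- eTR against Id3+ eTR had 1, but 0 with the compared groups only and 0 without the 3 libraries.

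With each library left out in turn, calls ranged, for Id3- eTR against Id3+ cTR, Id3+ eTR against Id3+ cTR and Id3- eTR against Id3+ eTR, from 0 to 0, 0 to 1 and 0 to 1 in spleen, 0 to 1, 0 to 0 and 0 to 0 in lymph node and 3 to 4, 0 to 3 and 0 to 2 over the mean of tissues. Between the tissues they ranged from 0 to 0, 0 to 2 and 0 to 1 in Id3+ cTR, Id3+ eTR and Id3- eTR, 2 to 2 over their mean, and 0 to 0 in the interactions. The cause of these shifts was not tested. A fit of only the compared groups was not run for the tissue comparison over the mean, which uses all 6. In data simulated for spleen Id3- eTR against Id3+ cTR (12134 genes, 200 of them changed), 19.4% of genes changed by 2-fold were called. That simulation gave 62 calls in all, against 1526 in the data, and had no mouse effect. With fewer calls the adjustment is stricter, so the 19.4% does not carry over to the data. The other single-tissue comparisons were not simulated. Counts for Idi1 and Scd1 limit what can be said of them.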
